A study of Homo sapiens with 12 samples.

Results

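The tunicamycin response of QRICH1 KO cells was described from 6 of the 12 libraries of the series, 3 labelled QRICH1 KO with the solvent DMSO and 3 labelled QRICH1 KO with tunicamycin (Tm). The libraries were chosen by their sample titles, and the response was measured over all expressed genes. All 12 libraries came from HT29, an established human colorectal adenocarcinoma line, in a derivative that expresses Cas9 and received a guide RNA by lentivirus. The guide was against QRICH1 in the KO cells and non-targeting in the comparison cells, called WT here as in the labels, so the controls also carried Cas9 and a guide. Tm was given at 0.3 µg/ml for 14 h. Each group has 3 libraries, described in the series design as biological replicates. Whether the KO cells were 1 clone or a pool, and what share of their alleles was edited, is not given in the sources used here.

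Tunicamycin blocks the enzyme that starts N-glycan synthesis, so glycoproteins misfold in the endoplasmic reticulum (ER). The membrane sensors IRE1, ATF6 and PERK then start the unfolded protein response. IRE1 splices the mRNA of XBP1, cleaved ATF6 enters the nucleus and both factors turn on folding, degradation and export genes, while PERK phosphorylates the translation factor eIF2 and thereby favours translation of ATF4, which turns on amino acid supply genes and, through CHOP (DDIT3), genes linked to cell death. The QRICH1 protein is rich in glutamine and carries a CARD domain.

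The 6 libraries held 9063303 to 17861844 counts, and 11323 genes passed the filter on low counts. The first principal component of the 6 libraries held 47.7% of the variance and put the DMSO libraries between -33.6 and -20.6 and the Tm libraries between 23.1 and 31.2. The second component held 18.9% and put same-numbered libraries of both treatments near each other, libraries 1 at 17.8 (DMSO) and 23.7 (Tm), libraries 2 at -1.18 and 5.05 and libraries 3 at -24.1 and -21.2. Libraries 3 had more genes with a count, 15340 in DMSO and 14813 in Tm against 13351 to 14094 in the other 4. Results were therefore also computed without them. All 10 markers of colorectal epithelium passed the filter, but CDX2 (0.226 to 1.44 CPM) and CEACAM5 (0.585 to 2.84 CPM) were low in the KO libraries. Of 24 markers of other cell types 4 also passed the filter. Among the 24, 15 had at most 5 counts in every KO library and 4 had none. LYZ, a lysozyme gene that intestinal epithelium also expresses, was the abundant one, and the summed level of the other 23 markers ranged over 3.74 to 7.13 CPM with DMSO and 4.04 to 6.67 CPM with Tm. CPM values are counts relative to library size, scaled by the trimmed mean of M-values (TMM). In bulk RNA, fewer cells of a type and less RNA per cell cannot be told apart.

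The targeted gene, QRICH1 (ENSG00000198218.11, chr3:49029707-49094363, minus strand, hg38), was at 23.3, 24.04 and 24.8 CPM with DMSO and 26.8, 22.3 and 19.2 CPM with Tm in the KO libraries. WT libraries held 22.7 to 35.0 CPM with DMSO and 25.7 to 31.0 CPM with Tm, a range that overlaps the KO values. Gene-level counts do not show whether the reading frame is intact, so this level does not check the knockout. Within KO cells the Tm and DMSO libraries overlapped, and the level differed by -0.08 on the log2 scale (SE 0.162, adjusted p = 0.806). Here and below, p-values come from edgeR's two-sided quasi-likelihood test, adjusted by Benjamini-Hochberg across all genes tested, and genes count as called under 0.05.

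In KO cells Tm raised 1029 genes (9.09% of those tested) and lowered 739 (6.53%), the shares against which members of gene lists are read below. With upper-quartile scaling these counts were nearly even, 917 and 881. Among larger changes upward calls were more frequent. At least 2-fold changes were called for 359 genes upward (3.17%) and 70 downward (0.618%), at least 4-fold changes for 108 and 9, and at least 8-fold changes for 43 and 3. The median log2 fold change was 0.79 over the genes that rose, -0.59 over those that fell and -0.0039 over all genes tested. All 3 Tm libraries lay above all 3 DMSO libraries for 1020 of the 1029 genes, and below them for 711 of the 739, where 16.9% and 15.5% of all genes had no overlap in those directions. The count of lowered genes depended on single libraries. It was 439 without DMSO library 1, 389 without DMSO library 2, 438 without Tm library 2, 400 without Tm library 3 and 469 without both libraries 3.

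Most ER chaperone genes rose in KO cells. Of 24 members tested 19 rose, 0 fell and 5 missed the threshold. The median log2 change of the list was 1.60. HSPA5 (ENSG00000044574.8, chr9:125234853-125241330, minus strand, hg38), which encodes the ER Hsp70 BiP, was at 1138, 1184 and 1055 CPM with DMSO and at 16153, 17917 and 15286 CPM with Tm. The groups were far apart, and the level rose 14.6-fold (log2 3.87, SE 0.139, adjusted p = 1.16e-12). HSP90B1, the ER Hsp90, went from 724, 708 and 679 CPM to 4789, 5347 and 5162 CPM, a 7.24-fold rise (SE 0.111 on the log2 scale, adjusted p = 2.93e-12). The BiP co-chaperone DNAJB9 stood at 14.2, 13.1 and 16.2 CPM before and 172, 186 and 175 CPM after, a 12.2-fold rise. SDF2L1, which works with ER DnaJ proteins, went from 14.0, 14.1 and 13.3 CPM to 167, 160 and 139 CPM, an 11.2-fold rise. For these co-chaperones too, every Tm library lay above every DMSO library. HYOU1, a nucleotide exchange factor of BiP, and MANF, a secreted BiP-binding factor, rose by 3.11 and 3.01 on the log2 scale. The lectin chaperone CALR rose by 1.25, whereas its partner CANX stood at 0.99, which was not called (SE 0.342, adjusted p = 0.0589). CANX was called with the replicate number as a block (0.99, adjusted p = 0.0216) and without DMSO library 3 (1.35) or Tm library 1 (1.27). Without the filter on low counts it was also called (adjusted p = 1.58e-13). Its log2 change was nearly the same there (0.98), so that call reflects a different estimate of the spread. The collagen chaperone SERPINH1 stood at -0.24 (adjusted p = 0.263).

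**Figure D1:**
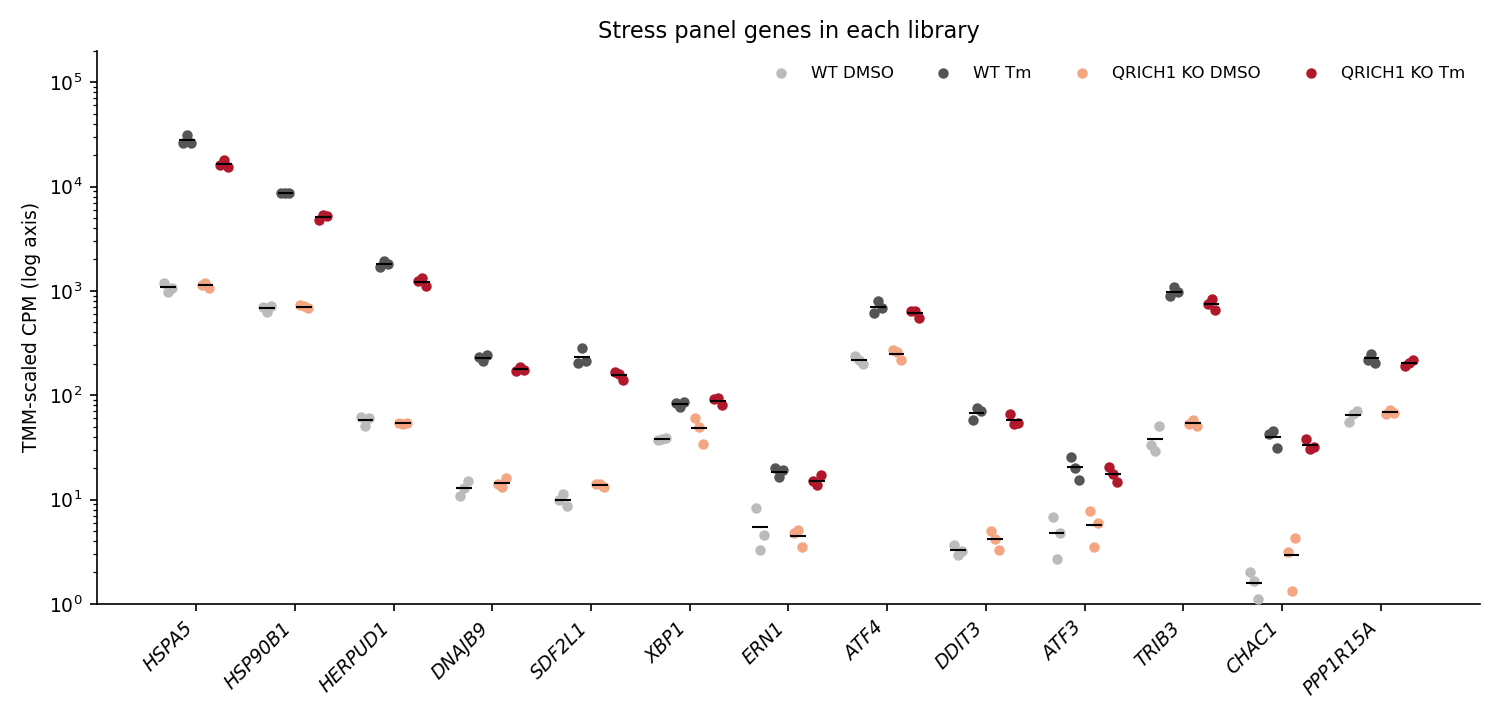
TMM-scaled CPM on a log axis for the stress panel in each library, with 1 point for each of the 3 libraries of a group and a line at the group mean. For every gene drawn, the 3 Tm libraries of QRICH1 KO cells lay above the 3 DMSO libraries, for example HSPA5 at 15286 to 17917 against 1055 to 1184 CPM.

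Promoters of several of these genes hold the ER stress response element (ERSE), a site read by ATF6 and XBP1 together with the CCAAT-binding factor NF-Y. The stretches around it are shown for genes whose stress response the element is known for, so their rise is no independent support for it. ERSE was searched on both strands as CCAAT, a gap of 9 bases and CCACG, and a shorter form, ERSE-II, as ATTGG, 1 base and CCACG. The windows ran from 250 bases before to 50 after each start in RefSeq (GRCh38.p14), and capitals mark the element, which reads as its reverse complement where it lies on the other strand.
HSPA5: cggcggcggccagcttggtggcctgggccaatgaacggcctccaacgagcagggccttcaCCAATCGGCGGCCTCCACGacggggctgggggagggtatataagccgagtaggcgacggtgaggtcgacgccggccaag
HSP90B1: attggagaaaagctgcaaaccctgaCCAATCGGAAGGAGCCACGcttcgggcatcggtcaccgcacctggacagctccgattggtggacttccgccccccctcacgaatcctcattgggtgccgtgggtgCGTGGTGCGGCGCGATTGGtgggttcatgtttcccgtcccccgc
XBP1: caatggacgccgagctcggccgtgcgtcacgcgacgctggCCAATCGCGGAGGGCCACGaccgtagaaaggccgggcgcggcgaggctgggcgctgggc
CALR: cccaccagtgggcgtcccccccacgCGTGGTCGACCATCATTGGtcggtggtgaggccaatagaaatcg
HERPUD1: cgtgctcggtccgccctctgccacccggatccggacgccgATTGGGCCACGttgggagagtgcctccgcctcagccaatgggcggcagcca
SDF2L1: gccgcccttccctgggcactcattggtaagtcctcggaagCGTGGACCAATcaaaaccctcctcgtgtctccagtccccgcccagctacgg
The HSPA5 stretch is chr9:125241331-125241469, minus strand, with the element 66 to 48 bases before the start. HSP90B1 (chr12:103930191-103930364, plus strand) holds 2 elements facing opposite ways. XBP1 (chr22:28800563-28800661, minus strand) and CALR (chr19:12938359-12938427, plus strand) hold 1 each, and HERPUD1 (chr16:56931985-56932075, plus strand) and SDF2L1 (chr22:21642074-21642164, plus strand) hold ERSE-II.

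Of the 11323 genes tested 9260 had a promoter window. ERSE occurred in the windows of 15 of them (0.162%, and in 0.0769% of all 35116 windows of that length), and 11 of the 15 rose with Tm in KO cells while 0 fell. That is 73.3% of the carriers against 9.19% of the genes with a window. Carriers of ERSE, and of ERSE-II below, include the genes shown above because the element is known for them. These shares are therefore no independent support for it either. Besides HSPA5, HSP90B1, XBP1 and CALR the risers were the oxidase gene ERO1B, CRELD2, the AMPylation enzyme gene FICD, the translocon stabiliser gene SERP1, the disulfide isomerase gene PDIA6, TRIM5 and EIF2A. The carriers that were not called were CANX, ZNF17, ALG12 and TMEM120A, and ZNF17 was called without DMSO library 2 (adjusted p = 0.0392). EIF2A lost its call without both libraries 3 (adjusted p = 0.0585) and without Tm library 1 (adjusted p = 0.0512). ERSE-II, a motif added after values were seen, occurred in 13 genes (0.140%), of which 6 rose and 1 fell. The risers were HERPUD1, SDF2L1, HYOU1, the calcium-binding protein gene NUCB1 (0.85), SHCBP1 (0.57) and CAMTA1 (0.53). The glycogen synthase gene GYS1 fell by 0.50 on the log2 scale (adjusted p = 0.0218). GYS1 was not called without DMSO library 1 or 2 or Tm library 2 or 3 (adjusted p = 0.0561 to 0.0961) nor without both libraries 3, and CAMTA1 not without DMSO library 2, Tm library 1 or both libraries 3 (adjusted p = 0.0555 to 0.0695).

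The XBP1-binding UPR element TGACGTGG, searched on both strands, was in the windows of 110 genes (1.19%), of which 44 rose and 8 fell (40% higher). The CCAAT box alone was in 4055 genes (43.8%), of which 10.6% rose, close to the background of 9.19%. The C/EBP-ATF element, bound by ATF4 with C/EBP partners and searched as TGATGNAAN, was in 252 genes (2.72%), of which 49 rose and 10 fell (19.4% higher). The median log2 fold change in KO cells was 1.25 for ERSE carriers, 0.52 for ERSE-II, 0.41 for the UPR element and 0.06 for the C/EBP-ATF element. On their own strand only, 6 of 9 ERSE carriers and 3 of 4 ERSE-II carriers rose, the latter 75% against 46.2% on both strands. The windows overlap where a gene has several starts, and CCAAT is part of ERSE and, in reverse, of ERSE-II. A stretch with the C/EBP-ATF element is shown for CHAC1, which degrades glutathione, and ATF3, a transcription factor of the ATF4 branch.
CHAC1: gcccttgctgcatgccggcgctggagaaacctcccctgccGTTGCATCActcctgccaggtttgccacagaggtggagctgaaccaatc
ATF3: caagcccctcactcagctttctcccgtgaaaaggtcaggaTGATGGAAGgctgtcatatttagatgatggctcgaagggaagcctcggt
These lie at chr15:40953221-40953309, plus strand, and chr1:212565176-212565264, plus strand (GRCh38.p14, RefSeq), with the element in capitals. A match of letters is not evidence that a factor binds there.

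**Figure D2:**
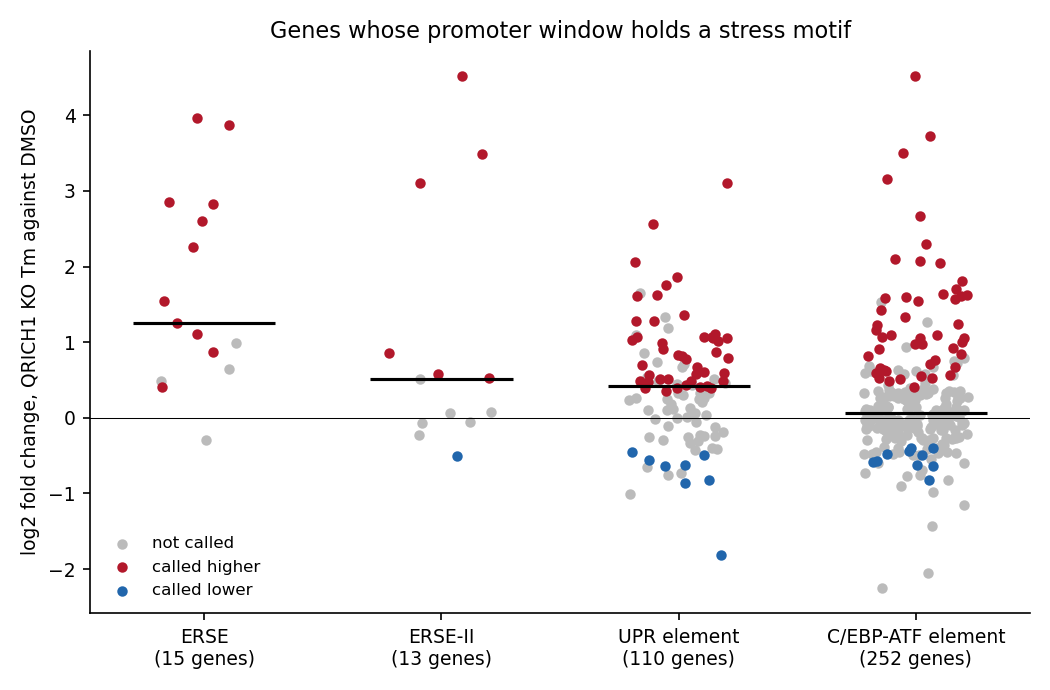
log2 fold change of QRICH1 KO cells with Tm against DMSO for genes whose promoter window holds each motif on either strand, 1 point per gene, coloured by the edgeR call, with a line at the median. Of 15 ERSE carriers 11 were called higher, of 110 carriers of the UPR element 44, and of 252 carriers of the C/EBP-ATF element 49.

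Of 21 disulfide isomerases and oxidases 13 rose, 0 fell and 8 were not called (median log2 fold change 0.97). AGR2, an isomerase needed for mucin folding, gave the largest rise of any gene averaging at least 10 CPM, from 76.5, 65.8 and 57.9 CPM to 1679, 1961 and 1621 CPM (26.3-fold, log2 4.71, SE 0.15, adjusted p = 3.64e-13). PDIA4 went from 711, 730 and 637 CPM to 4221, 4583 and 3664 CPM (log2 2.58), and PDIA3, which acts on glycoproteins held by CALR and CANX, rose by 1.64. ERO1B, an oxidase that recharges the isomerases, was low with DMSO (0.565, 0.970 and 1.13 CPM) and reached 13.1, 11.3 and 17.1 CPM. The quiescin oxidase gene QSOX1 had a log2 fold change of -0.16 (adjusted p = 0.448).

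Among 33 genes of ER-associated degradation 18 rose, 0 fell and 15 were not called (median 0.54). HERPUD1 (ENSG00000051108.15, chr16:56932048-56944863, plus strand, hg38), a scaffold of the HRD1 ligase complex, was at 53.7, 53.5 and 53.6 CPM with DMSO and 1253, 1323 and 1104 CPM with Tm. It rose 22.9-fold (log2 4.52, SE 0.125, adjusted p = 4.88e-14). SEL1L, the adaptor of that ligase, rose by 2.83 on the log2 scale, and SYVN1, which encodes HRD1 itself, by 2.32. SELENOS, a selenoprotein of the retrotranslocation complex, went from 50.5, 46.2 and 48.4 CPM to 223, 205 and 192 CPM (log2 2.09).

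Most tested genes of entry into the ER and of export from it rose in KO cells. In targeting and translocation 23 of 35 genes rose and 0 fell (median 0.86), including SRPRB, of the receptor for the signal recognition particle, by 2.10, SEC11C of the signal peptidase by 2.05 and the channel subunit SEC61G by 1.84. COPII, COPI and other ER-Golgi transport genes rose in 41 of 55 cases, and 0 fell (median 0.88). SEC24D, a COPII cargo adaptor, went from 9.15, 7.20 and 5.69 CPM to 97.4, 111 and 92.8 CPM (13.6-fold, adjusted p = 6.29e-10), while the SNARE gene BET1 rose by 1.88 and MCFD2, a partner of a cargo receptor, by 1.62. Among ER calcium and selenoprotein genes 9 of 20 rose and 0 fell. NUCB2, a calcium-binding protein gene, stood out with 5.08, 5.26 and 5.88 CPM before and 86.6, 98.5 and 104 CPM after (17.8-fold), and the calcium pump gene ATP2A2 rose by 1.04.

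The pathway that the drug blocks was itself raised in part. Of 37 genes of N-glycan assembly and transfer 16 rose, 0 fell and 21 were not called (median 0.49), and the examples were moderate. OSTC, a subunit of the oligosaccharyltransferase, rose by 1.98 and the transporter-like subunit gene MAGT1 by 1.80, while the mannosyltransferase gene ALG2 rose by 1.17 and the glucosyltransferase gene ALG5 by 1.14. Of 15 genes that supply UDP-GlcNAc and other nucleotide sugars 10 rose and 0 fell (median 0.58). GFPT1, which catalyses the first step of the hexosamine pathway, went from 108, 115 and 136 CPM to 367, 440 and 482 CPM (log2 1.84, adjusted p = 1.21e-08), and PGM3 and UAP1, which act later in it, rose by 2.04 and 1.40. SLC35B1, which carries ATP into the ER, rose by 1.68.

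Together these 8 lists (chaperones, isomerases, degradation, translocation, N-glycans, nucleotide sugars, ER-Golgi transport, calcium and selenoproteins) took 2.88%, 2.92% and 3.10% of the counts of the KO DMSO libraries and 7.28%, 7.77% and 7.57% of the Tm libraries. The mean share grew 2.54-fold. The chaperone list alone grew from 0.423% to 2.70%. A summed share weighs each gene by its counts, and HSPA5 alone made up a large part of the chaperone share with Tm. HSPA5 ranked among the 10 genes with the most counts in the KO Tm libraries, beside KRT8, KRT18, EEF1A1, FTL, ACTB, ACTG1, ENO1, MT-CO2 and HSPA8. Counts grow with transcript length. Per kilobase of annotated exon, the mean Tm level was 4210 CPM for HSPA5, 6230 CPM for the keratin gene KRT8 and 3604 CPM for the elongation factor gene EEF1A1.

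**Figure D3:**
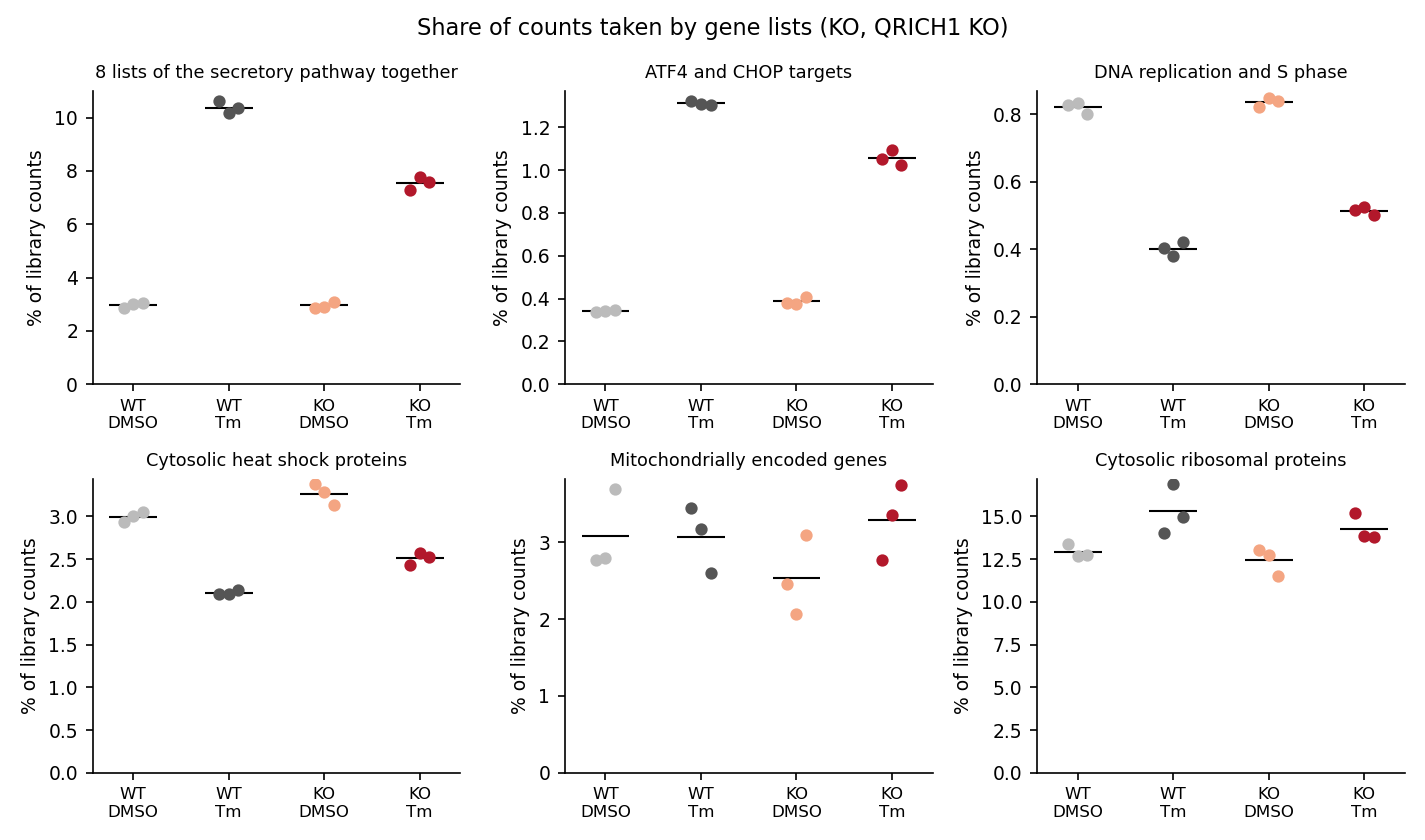
Share of each library's counts taken by 6 gene lists in the 4 groups, 1 point for each of the 3 libraries and a line at the group mean. In QRICH1 KO cells the 8 secretory pathway lists went from 2.88% to 3.10% with DMSO to 7.28% to 7.77% with Tm, and the DNA replication list fell from a mean of 0.836% to 0.514%.

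Transcripts of the sensors themselves rose in part. Of 12 sensor and transducer genes 6 rose and 0 fell (median 0.65). ERN1, which encodes IRE1, was at 4.74, 5.13 and 3.50 CPM with DMSO and 14.9, 13.7 and 17.0 CPM with Tm (3.42-fold, adjusted p = 6.81e-05). EIF2AK3, which encodes PERK, rose by 1.76 (adjusted p = 0.00073). ATF6 went from 33.2, 31.2 and 32.6 CPM to 61.8, 66.2 and 72.3 CPM (log2 1.05), and XBP1 from 60.04, 49.8 and 34.4 CPM to 91.0, 93.0 and 80.0 CPM (log2 0.87, SE 0.151, adjusted p = 0.000579). Gene counts do not separate spliced from unspliced XBP1. The related factor genes CREB3L2 and CREB3 rose by 1.55 and 0.76. The other 6 genes did not pass the test. Among 10 reported substrates of IRE1-dependent mRNA decay 1, TNFRSF10B, rose and 2 fell. Over all genes 9.09% rose and 6.53% fell, so the riser is near that share. DGAT2, which makes triglycerides, fell by 2.08, from 11.5, 8.31 and 8.81 CPM to 2.14, 1.75 and 2.78 CPM, and the Golgi gene TGOLN2 fell by 0.55.

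Some transcription factor and feedback genes of the PERK branch rose, and most of the genes on these lists were not called. ATF4 (ENSG00000128272.14, chr22:39519695-39522685, plus strand, hg38) was at 272, 259 and 219 CPM with DMSO and 641, 640 and 551 CPM with Tm (2.44-fold, log2 1.29, SE 0.123, adjusted p = 4.3e-07). DDIT3 (ENSG00000175197.12, chr12:57516588-57521737, minus strand, hg38), which encodes CHOP, went from 5.03, 4.23 and 3.25 CPM to 65.6, 52.4 and 54.3 CPM. That was a 13.7-fold rise (log2 3.78, adjusted p = 2.9e-11) with no overlap between groups. ATF3 went from 7.68, 3.53 and 6.001 CPM to 20.7, 17.4 and 14.8 CPM (log2 1.61, adjusted p = 0.000807). Of 18 factors of the ATF4 and CHOP network 6 rose, 11 were not called and 1, KLF6, fell by 0.35 (adjusted p = 0.0385). KLF6 was not called when any 1 of the 6 KO libraries was left out (adjusted p = 0.0527 to 0.143), when WT DMSO library 2 or WT Tm library 3 was left out (0.0536 and 0.0532), without both libraries 3 (0.125) or without the filter on low counts (0.0611). On the eIF2 side 4 of 16 genes rose, 11 were not called and 1 fell, the amino acid sensing kinase gene EIF2AK4 (log2 -0.41, adjusted p = 0.0379), which was not called when any 1 of the 6 KO libraries or WT DMSO library 2 was left out (adjusted p = 0.0501 to 0.106). The risers were led by DNAJC3, an inhibitor of eIF2 kinases, at 3.10, and by PPP1R15A (GADD34), the phosphatase subunit that reverses eIF2 phosphorylation, which went from 66.3, 71.8 and 67.1 CPM to 188, 202 and 217 CPM (log2 1.57).

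ATF4 and CHOP targets had the highest share of risers of any list, 28 of 32 with 0 fallers (median 1.62). TRIB3, a pseudokinase that feeds back on ATF4 and CHOP, was at 53.1, 58.3 and 50.1 CPM with DMSO and 748, 827 and 656 CPM with Tm (13.8-fold, adjusted p = 3.29e-11). CHAC1 went from 3.16, 1.32 and 4.25 CPM to 37.7, 30.5 and 31.7 CPM (11.3-fold, adjusted p = 3.07e-08). The other 4 members were not called. Among the risers ASNS, the asparagine synthetase gene, was near the detection limit, with 0.339, 0.139 and 0.375 CPM before and 1.82, 1.87 and 1.99 CPM after (adjusted p = 0.00357), where 3 counts in a KO library came to 0.168 to 0.331 CPM.

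Transcripts for amino acid supply rose for about as many genes as were not called. Of 21 amino acid transporter genes 10 rose, 0 fell and 11 were not called (median 0.37). SLC7A11, the cystine importer, went from 16.2, 16.3 and 20.5 CPM to 95.2, 106 and 105 CPM (log2 2.53), and its heavy chain partner SLC3A2 rose by 2.30. The neutral amino acid carrier gene SLC1A4 and the glycine carrier gene SLC6A9 each rose by 3.15. Among serine, one-carbon and proline synthesis genes 11 of 21 rose, 2 fell and 8 were not called (median 0.60). PSAT1, the aminotransferase of serine synthesis, went from 176, 173 and 169 CPM to 847, 1018 and 801 CPM (log2 2.37), and the mitochondrial folate enzyme genes MTHFD2 and SHMT2 rose by 2.04 and 1.63. The cystathionine lyase gene CTH rose by 2.60.

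Of 21 genes of cytosolic aminoacyl-tRNA synthetases, which charge tRNA, 11 rose, 0 fell and 10 were not called (median 0.62), led by those for tryptophan (WARS1, 2.46), serine (SARS1, 1.497), alanine (AARS1, 1.43) and glycine (GARS1, 1.34). Of 11 brakes on mTORC1 signalling 3 rose and 1 fell. DDIT4 (REDD1) went from 4.74, 4.64 and 4.001 CPM to 71.7, 66.0 and 52.3 CPM (14.2-fold), SESN2, a leucine sensor, rose by 2.45 and EIF4EBP1, an inhibitor of cap-dependent translation, by 1.65. SESN1, a p53-driven sestrin, fell by 0.84 (adjusted p = 0.00139).

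**Figure D4:**
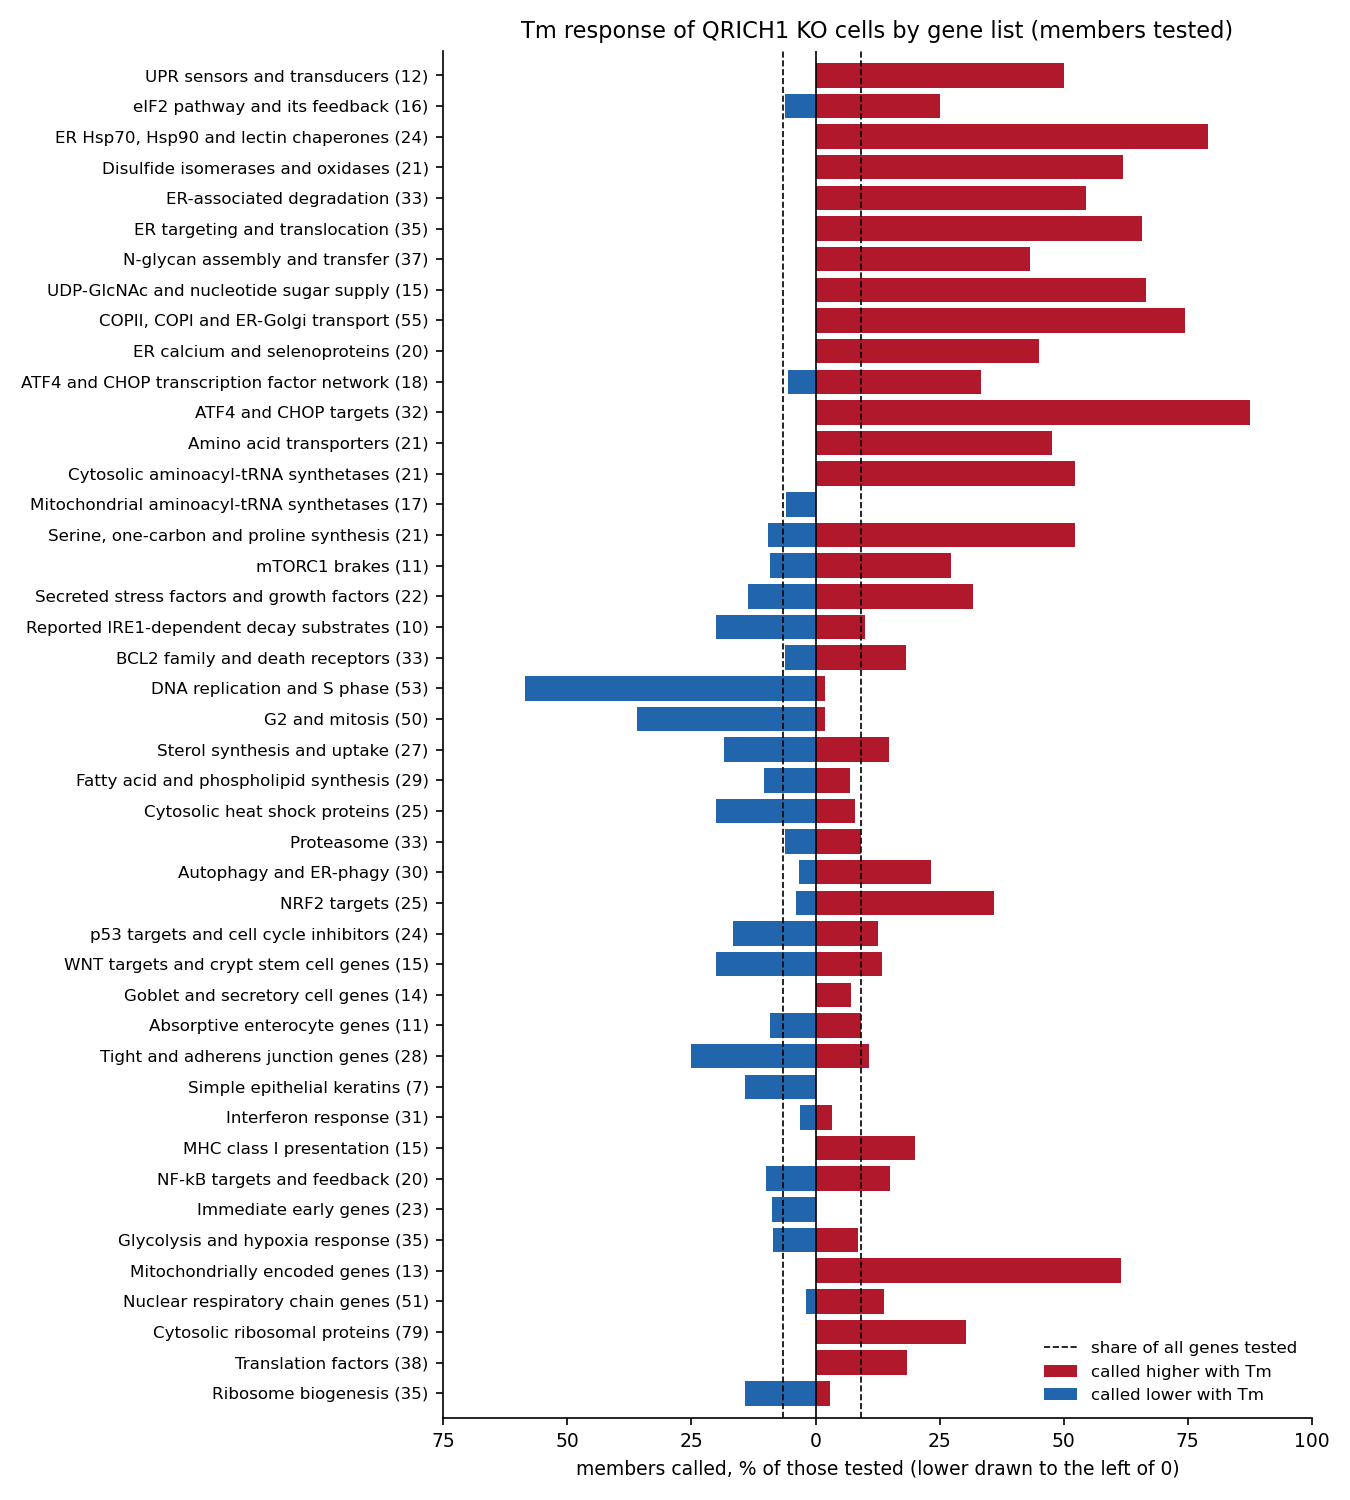
Share of the tested members of each gene list that edgeR called higher (red, right) or lower (blue, left) with Tm in QRICH1 KO cells, with the number tested in brackets and dashed lines at 9.09% and 6.53%, the shares of all genes tested. The bars longest to the right are the ATF4 and CHOP targets (28 of 32) and the ER chaperones (19 of 24), and the longest to the left is DNA replication (31 of 53).

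Of 53 DNA replication genes tested 31 fell, 1 rose and 21 were not called (median -0.57), and their summed share of counts fell from 0.822%, 0.847% and 0.839% with DMSO to 0.516%, 0.526% and 0.501% with Tm. UHRF1, which maintains DNA methylation at the fork, went from 110, 127 and 119 CPM to 56.7, 45.2 and 48.3 CPM (log2 -1.24, SE 0.13, adjusted p = 1.57e-06). The log2 changes of the helicase genes MCM2 and GINS2 were -1.03 and -1.08, and those of ORC1 of the origin recognition complex, the DNA ligase gene LIG1 and the sliding clamp gene PCNA were -1.01, -1.001 and -0.94, all called lower. The exception was CDC6, a loader of the helicase, which rose by 0.94 (adjusted p = 6.81e-07). Of 50 genes of G2 and mitosis 18 fell and 1 rose (median -0.27). MKI67 fell by 0.57 and BIRC5, a mitotic survivin, by 0.68, while CKS1B, a cyclin-dependent kinase subunit, rose by 0.78. Among cell cycle inhibitors CDKN1A (p21) rose by 1.69, from 5.76, 3.39 and 5.63 CPM to 13.7, 17.7 and 16.9 CPM, and CDKN2B (p15) by 0.84.

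Among the largest decreases were genes of several kinds. EDN1 (ENSG00000078401.7, chr6:12290363-12297194, plus strand, hg38), which encodes endothelin-1, was at 22.2, 21.5 and 19.4 CPM with DMSO and 8.01, 6.55 and 5.80 CPM with Tm (3.09-fold lower, adjusted p = 2.83e-05). GATA2, a transcription factor, went from 71.4, 59.7 and 58.6 CPM to 23.1, 24.7 and 26.7 CPM (log2 -1.35). FAM111B, a protease gene, fell by 1.25 and the cell adhesion gene BCAM by 1.16. The stem cell receptor gene LGR5 fell less, by 0.92, and was not among the largest decreases. In every one of these genes the highest Tm library lay below the lowest DMSO library. The rule that named the largest decreases required this, and 15.5% of all genes had no overlap in that direction. On the list of cytosolic heat shock genes, which also holds the mitochondrial HSPA9, 5 of 25 genes fell and 2 rose. Over all genes 6.53% fell and 9.09% rose, so the risers are near that share. The constitutive Hsp70 gene HSPA8 went from 13597, 13164 and 12043 CPM to 8253, 9100 and 8385 CPM (log2 -0.59, adjusted p = 0.00132), HSPH1 fell by 0.93 and HSPB1 by 1.07, whereas HSPA9, the mitochondrial Hsp70 gene, rose by 0.77.

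Of 33 BCL2 family, caspase and death receptor genes 6 rose, 2 fell and 25 were not called (median 0.14). Over all genes 9.09% rose and 6.53% fell, so the fallers are near that share. Without DMSO library 3 the risers numbered 3, and the fallers were 0 without DMSO library 1 and 1 without DMSO library 2, Tm library 1, 2 or 3 or both libraries 3. TNFRSF10B, the death receptor DR5 and a CHOP target, went from 68.4, 61.4 and 60.7 CPM to 141, 141 and 125 CPM (log2 1.10, adjusted p = 2.58e-07). PMAIP1 (NOXA) went from 6.04, 3.95 and 7.69 CPM to 14.9, 11.5 and 10.2 CPM (log2 1.04, adjusted p = 0.0041), and the inflammatory caspase gene CASP4 rose by 0.54. The survival gene MCL1 stood at 0.17 on the log2 scale (SE 0.156, adjusted p = 0.533).

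Secreted factors went both ways, with 7 of 22 higher and 3 lower. GDF15, a stress hormone, went from 74.3, 64.9 and 60.01 CPM to 277, 265 and 218 CPM (log2 1.93, adjusted p = 5.55e-09). The EGF receptor ligand genes AREG and EREG rose by 2.35 and 1.85 and the angiogenic factor gene VEGFA by 2.22. Autophagy genes rose in 7 of 30 cases and fell in 1. WIPI1, which acts in phagophore formation, went from 3.67, 3.67 and 2.94 CPM to 39.6, 40.9 and 39.3 CPM (log2 3.54), MAP1LC3B (LC3) rose by 2.02 and TFEB, a regulator of lysosomal genes, fell by 1.31. NRF2 targets rose in 9 of 25 cases and fell in 1, with UGDH at 1.60 and the thioredoxin reductase gene TXNRD1 at 0.72. That count was 5 without DMSO library 2, without Tm library 2 and without both libraries 3.

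Mitochondrially encoded genes rose in 8 of 13 cases with 0 lower (median 0.51), against a median of -0.0039 over all genes. The level of MT-CO1, a subunit of cytochrome c oxidase, went from 4603, 3848 and 4123 CPM to 5382, 6705 and 6749 CPM (log2 0.58, adjusted p = 0.00499), and MT-ND3 of complex I rose by 0.88. The count was 5 without DMSO library 1, 3 without DMSO library 2 or Tm library 2, 4 without Tm library 3 and 4 with upper-quartile scaling. The share of counts from these genes overlapped between treatments, at 2.45%, 2.06% and 3.10% with DMSO and 2.77%, 3.36% and 3.74% with Tm. Cytosolic ribosomal protein genes rose in 24 of 79 cases with 0 lower (median 0.32), and this count was 7 without both libraries 3, 15 without DMSO library 2, 12 without DMSO library 3, 13 without Tm library 1 and 13 without Tm library 3. Here RPS23 rose by 0.998 and RPS13 by 0.74. Many of these genes have near-identical processed copies in the genome, so their counts are uncertain.

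Genes under 1 CPM in every DMSO library that reached 5 CPM in every Tm library numbered 2. PEAR1, a receptor gene known from platelets and endothelium, had 1, 0 and 2 counts in the DMSO libraries and 103, 70 and 100 in the Tm libraries. The ratio of summed counts, scaled to library totals, was 122 (95% exact binomial interval 41.2 to 593, counting error only). CLGN, a calnexin relative known from testis, had 6, 8 and 14 counts before and 86, 58 and 88 after (ratio 11.1, 95% interval 7.46 to 17.0). Both genes were also called higher in WT cells. NIBAN1, a stress-induced regulator of translation, was low at 2.43, 2.42 and 6.38 CPM and reached 65.6, 70.3 and 64.4 CPM. Its log2 rise of 4.15 became 4.78 without DMSO library 3, where its DMSO level was highest, and 4.798 without both libraries 3.

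The remaining counts are read against 9.09% of all genes higher and 6.53% lower. Interferon response genes had 1 riser and 1 faller of 31, immediate early genes 0 and 2 of 23, proteasome genes 3 and 2 of 33, glycolysis and hypoxia genes 3 and 3 of 35, and goblet cell genes 1 (AGR2) and 0 of 14. The proteasome fallers ranged from 0 (without DMSO library 1 or 2 or Tm library 1 or 3) to 4 (without DMSO library 3). The immediate early fallers were 0 without DMSO library 1 or 2, any 1 Tm library or WT DMSO library 2, and 1 without DMSO library 3 or WT Tm library 3. The interferon risers were 2 without DMSO library 1 or Tm library 1 or 3, and the fallers 0 without DMSO library 2 or Tm library 2 or 3. Sterol synthesis and uptake genes were split, with 4 higher and 5 lower of 27. The sterol carrier gene STARD4 rose by 2.16. Single libraries changed these sterol counts to as few as 2 higher and 2 lower, and leaving out both libraries 3 left 1 lower. Tight and adherens junction genes had 3 risers and 7 fallers of 28, for example CLDN2, a pore-forming claudin, which fell by 0.74, and the fallers were 4 without DMSO library 1 or 2 and 3 without Tm library 1.

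To ask where the KO response departs from that of WT cells, the difference of the log2 responses was tested over all 12 libraries. By the edgeR test 0 genes (0% of those tested) differed, with a smallest adjusted p of 0.0721, and 774 genes (6.84%) had an unadjusted p under 0.05, 432 with a lower and 342 with a higher response in KO. DESeq2 called 28 genes lower and 7 higher, and edgeR without the filter on low counts called 32 lower and 12 higher. Both of these fits called 23 genes. Without WT DMSO library 3 the filtered edgeR test called 4 genes lower. The number of differing genes thus depended on the tool and the filter. The unfiltered fit also called some genes with wide errors in the filtered fit, and such calls carry less weight. For the 1 with the highest filtered adjusted p the filtered difference was 0.78 (SE 0.603, adjusted p = 0.852). Others had narrower errors in the filtered fit, such as CRELD2 (-1.15, SE 0.191) and HSP90B1 (-0.82, SE 0.146), which DESeq2 also called.

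The genes with the smallest p for the difference were mostly ER genes that rose in both cell types and rose less in KO. CRELD2, an ER chaperone gene, rose 7.08-fold in KO and 15.7-fold in WT (difference -1.15 on the log2 scale, SE 0.191, adjusted p = 0.0721). HSP90B1 rose 7.24-fold against 12.8-fold, SELENOK, an ER selenoprotein gene, 3.39-fold against 7.55-fold and SESN2 5.46-fold against 11.6-fold, all with an adjusted p of 0.0721. HSPA5 differed by -0.82 (14.6-fold against 25.8-fold, adjusted p = 0.142). DESeq2 called all of these lower in KO, and 16 of its 28 lower genes were in the 8 secretory lists. Together these lists hold 249 genes, where 11323 genes were tested. They also hold many of the genes that rose in both cell types, and their share among risers was not computed. AFAP1L2, an adaptor protein gene, was the exception among the smallest p-values. Its log2 fold change was 0.17 in KO and -1.498 in WT.

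Set beside WT cells list by list, the chaperone list had a median of 1.60 in KO and 2.10 in WT. Its response was lower in KO for 21 of 24 members, and 12 of the 24 had an unadjusted p under 0.05. Over all genes 48.8% had the lower value in KO and 6.84% had such a p. For ATF4 and CHOP targets the medians were 1.62 and 2.13, with 29 of 32 lower in KO and 18 with such a p. The 48.8% covers risers and fallers together, so it is no background for lists of risers. Other lists with risers also leaned lower in KO, with 49 of 55 ER-Golgi transport genes, 18 of 21 cytosolic aminoacyl-tRNA synthetase genes and 61 of 79 cytosolic ribosomal protein genes. DNA replication genes, which mostly fell, had the higher value in KO for 44 of 53. The 8 secretory lists together took 7.54% of KO Tm counts and 10.4% of WT Tm counts, from 2.97% and 2.98% with DMSO. DNA replication genes fell by a median of 0.57 in KO and 0.83 in WT, and 18 of 53 had an unadjusted p under 0.05. Of the 12 sensor genes 2 had such a p. The ERN1 response was 1.77 in KO and 1.84 in WT, a difference of -0.07 (SE 0.36, adjusted p = 0.989), an error too wide to show that the responses were alike. ATF4 itself differed by -0.40 (SE 0.171, adjusted p = 0.689). Mitochondrially encoded genes went the other way, with a higher value in KO for 13 of 13 and medians of 0.51 and 0.04. Of these 13 genes 5 had an unadjusted p under 0.05 for the difference, and edgeR called 0. Their share of counts spread widely within WT groups, over 2.77% to 3.69% with DMSO and 2.59% to 3.44% with Tm.

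Of the 1029 genes that rose in KO, 875 also rose in WT (1431 rose there, 12.6% of those tested), 154 were not called in WT and 0 fell. Of the 739 that fell, 539 fell in WT as well (1259 fell there, 11.1%), 200 were not called and 0 rose. Among genes called in KO and not in WT, 28 of the 154 and 23 of the 200 had an unadjusted p under 0.05 for the difference. Over all genes tested 6.84% had such a p. Picking genes by a call in KO and none in WT, in these same libraries, favours a difference. These counts are therefore no support for responses particular to KO. By edgeR the difference was called for 0 of these genes. TTC22 was among the largest decreases in KO (23.2, 20.0 and 12.1 CPM to 9.83, 10.997 and 6.28 CPM, log2 -1.04) and was not called in WT (-0.43), with a difference of -0.61 (adjusted p = 0.799). FADD, the adaptor of death receptors, fell by 0.73 in KO and had 0.14 in WT (difference -0.87, adjusted p = 0.538). It lost its KO call without DMSO library 1 or 2 or Tm library 1 or 2 (adjusted p = 0.0714 to 0.135). In the other direction, 556 genes rose and 720 fell in WT without a call in KO.

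**Figure D5:**
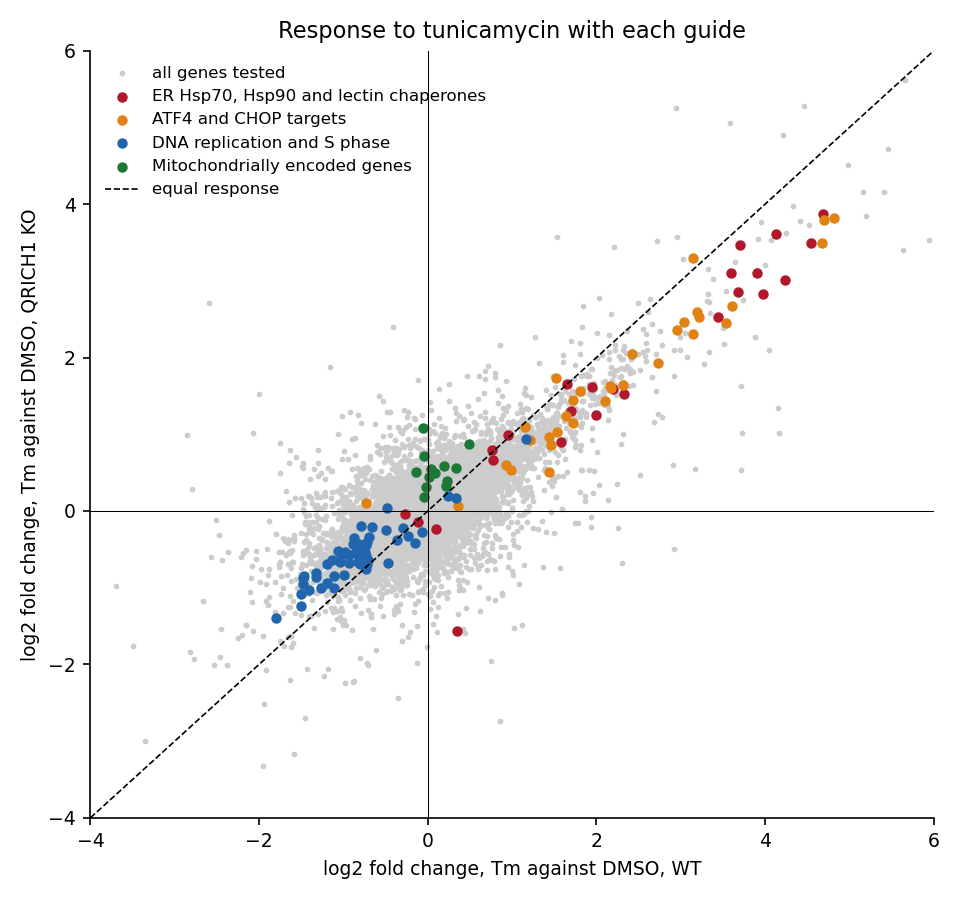
log2 fold change with Tm against DMSO in QRICH1 KO cells (vertical) against WT cells (horizontal) for the genes tested, with 4 lists coloured and a dashed line of equal response; 7 genes lie outside the axes. Most ER chaperones and ATF4 and CHOP targets lie below the line (21 of 24 and 29 of 32), and the 13 mitochondrially encoded genes lie above it.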

How the data were processed

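The authors deposited a table of raw read counts per gene for 12 bulk RNA-seq libraries. The tools named in the submitters' processing notes are STAR, Trimmomatic and DESeq2, with build hg38. The sources used here give no counting tool, strand setting or annotation. The table held 20015 genes. Coordinates of genes came from GENCODE 29, and promoter windows and sequences from RefSeq (GRCh38.p14).

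Genes were filtered with edgeR 4.0.16 (R 4.3.3, filterByExpr, minimum count 10), scaled by TMM and fitted over all 4 groups with a quasi-likelihood test, with a common biological coefficient of variation of 0.155. The contrasts were Tm against DMSO in KO cells, the same in WT cells and their difference. DESeq2 1.42.0, other scalings, no filter, a replicate block and leaving out libraries were alternatives. The code was tested on simulated data. If the 3 libraries of a group were not separate cultures, p-values measure technical spread only.

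Named genes were the stress panel, the 15 with the largest change in each direction (mean of at least 10 CPM, groups not overlapping), up to 5 called members of each list with the largest change (mean of at least 5 CPM), genes called for the difference (0 here), near-silent genes, the 10 genes with the most counts and QRICH1. The libraries, lists and rule were chosen with earlier results of these data known. Chosen after their values were seen were MANF, CALR, CANX, SERPINH1, CRELD2, FICD, SERP1, TRIM5, ZNF17, ALG12, TMEM120A, GYS1, SHCBP1, CAMTA1, QSOX1, EIF2AK3, ASNS, PCNA, CDC6, MCL1, SELENOK and AFAP1L2, and the ERSE-II motif.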

Additional observations from a re-analysis of the deposited data

How the results depend on the processing

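The count of genes higher in KO cells stayed within 1.5 times of 1029 under every alternative (720 to 1080 when 1 library was left out, 759 without both KO libraries 3, 917 with upper-quartile scaling, 1126 by DESeq2). The count of genes lower was less stable, 389 to 778 when 1 library was left out, 469 without both KO libraries 3, 881 with upper-quartile scaling, 871 by DESeq2 and 851 without the filter, against 739. The difference of responses gave 0 genes lower in KO by the filtered edgeR test, 0 to 4 when 1 library was left out, 32 without the filter and 28 by DESeq2, and for genes higher in KO 0, 0 to 0, 12 and 7. The cause was not tested.

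With the replicate number as a block, 1086 genes were higher and 802 lower in KO cells, 1500 and 1323 in WT cells, and 0 and 0 differed. This block was shared by KO and WT cells, and no paired fit of the KO libraries alone was run. Correlations of same-numbered libraries' deviations were 0.213, 0.00214 and 0.265 in KO and -0.139, -0.0511 and 0.0192 in WT, so the numbers were not taken to pair the libraries, although same-numbered KO libraries lay near each other on the second principal component.

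Of the named genes QRICH1, not called, changed sign, at 0.0551 without both KO libraries 3 and -0.215 to 0.0372 when 1 library was left out (the highest without KO Tm library 3), as did the medians of 10 lists with medians near 0 (-0.125 to 0.0541 on the log2 scale). The fatty acid and phospholipid median was -0.162 to 0.0469 when 1 library was left out (the highest without KO DMSO library 3), and the farthest opposite medians were 0.106 for immediate early genes (without KO Tm library 2), 0.0399 for interferon response, 0.00563 for markers of non-epithelial cells and 0.0150 for junctions, and -0.144 for NF-kB targets (without KO DMSO library 2), -0.139 for IRE1-decay substrates (without KO Tm library 3), -0.0571 for ribosome biogenesis, -0.0201 for the proteasome and -0.000538 for mTORC1 brakes. Genes near 1 CPM rest on few counts.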

Other observations

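For the gene groups below, the background was 9.09% of genes higher and 6.53% lower. Of 51 nuclear genes of the respiratory chain 7 rose and 1 fell (3 higher without both KO libraries 3, 11 by DESeq2 and in a fit to the 6 KO libraries alone, and 0 to 3 lower when 1 library was left out), and of 38 translation factors 7 rose and 0 fell (4 higher without both KO libraries 3, without DMSO library 2 and without Tm library 1). Of 15 genes of MHC class I presentation 3 rose and 0 fell (1 higher without both KO libraries 3). Of 20 NF-kB targets 3 rose and 2 fell, with 5 higher without WT DMSO library 3, 0 lower without DMSO library 2 or Tm library 3 and 1 lower without Tm library 1 or both KO libraries 3. Of 15 WNT targets and crypt stem cell genes 2 rose and 3 fell (1 lower without DMSO library 2 or Tm library 2). Ribosome biogenesis had 1 riser and 5 fallers of 35, with 2 to 3 fallers without DMSO library 1 or 2 or Tm library 2 or 3.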
